A study of Mus musculus with 4 samples.

Results

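The Trp63 locus encodes p63, a transcription factor of the p53 family. The gene lies on the plus strand of mouse chromosome 16 (chr16:25683763-25892102, mm10, GENCODE identifier ENSMUSG00000022510.14) and spans 208340 bp. Open chromatin at the locus was described from ATAC-seq, which uses the Tn5 transposase to tag DNA that is not packed away and so maps accessible sites. Peaks of 4 libraries were merged wherever they overlapped by at least 1 bp, and regions overlapping the gene body plus 300 kb on each side (chr16:25383763-26192102) were kept. This gave 62 of the 82641 merged regions of the genome. Within that window, regions were kept by position alone.

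All libraries came from keratinocytes of mice treated topically with a cream containing 5% imiquimod (Aldara) on 8 consecutive days, a model of psoriasis-like skin inflammation. Wild-type (WT) and Mapk8-KO mice gave 2 libraries each. The genotypes were compared to ask which regions change accessibility when the kinase JNK1, the product of Mapk8, is missing from the epidermis. Per the study's methods, the mice were C57BL/6 females aged 8 to 12 weeks, and Mapk8-KO animals carried floxed Mapk8 alleles and a Cre transgene driven by the keratin 14 promoter (KRT14-cre), which is active in basal epidermis. Controls were littermates. Cells positive for EpCam and high for CD49f had been sorted from dissociated skin, with CD45, CD31 and CD140a in the same stain. The samples of a genotype are described as independent in the study, but the labels name no animals, so spreads cover whatever separated these libraries.

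The gene has a pair of promoters. The upstream promoter starts TAp63, which carries a transactivation domain at its amino terminus, and an internal promoter starts ΔNp63, which lacks that domain. ΔNp63 is the main form in basal keratinocytes, where p63 maintains the proliferative basal layer and drives epidermal genes such as keratins 5 and 14. In the basic annotation, 4 TAp63 transcripts began at chr16:25683763 or 2 bp further on, and 4 ΔNp63 transcripts began 118 kb further downstream, at chr16:25801916.

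The 250 bases before each start are shown because the promoters differed in whether a peak was called. They were read on the plus strand from the RefSeq copy of GRCm38, the assembly that mm10 denotes, at chr16:25801666-25801915 for ΔNp63 and chr16:25683513-25683762 for TAp63. Capitals mark the letters TATAAA or TATATA in the last 50 bases and CCAAT on either strand (ATTGG on the reverse).
ΔNp63 promoter: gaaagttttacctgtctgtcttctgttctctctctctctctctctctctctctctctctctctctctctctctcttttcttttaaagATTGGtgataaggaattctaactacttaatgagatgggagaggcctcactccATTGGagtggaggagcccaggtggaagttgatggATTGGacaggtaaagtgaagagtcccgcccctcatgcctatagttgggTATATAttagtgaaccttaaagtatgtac
TAp63 promoter: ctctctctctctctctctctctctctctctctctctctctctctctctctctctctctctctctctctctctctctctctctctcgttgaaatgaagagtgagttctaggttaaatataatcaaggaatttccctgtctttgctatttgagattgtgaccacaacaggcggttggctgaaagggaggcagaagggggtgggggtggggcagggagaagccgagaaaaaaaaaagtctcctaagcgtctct

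The ΔNp63 promoter held TATATA, starting at position −29 from the transcription start, and CCAAT letters at 3 places, starting at −163, −111 and −77. Among 41404 promoters of coding transcripts, 3.63% held the TATA letters in that stretch and 33.9% held CCAAT. Its GC content was 43.6%, against a median of 55.6%, and it held 1 CpG, against a median of 10. The TAp63 promoter held none of these TATA or CCAAT letters, and had 48.0% GC and 4 CpGs. Neither promoter held an AP-1 motif (TGACTCA or TGAGTCA), which 3.73% of coding promoters did. AP-1 is formed by proteins of the JUN and FOS families, and JUN is a substrate of JNK kinases.

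Short stretches around the summits of 5 distal regions are also shown. The first 4 hold AP-1 letters, including the highest-ranked region of the locus, and the last is the strongest element between both promoters. Capitals mark AP-1 in the first 4 and, in the last, the letters AACNNGTT of Grainyhead-like (GRHL) factors and GGAATG of TEAD factors, on either strand (CATTCC on the reverse). All are on the plus strand of GRCm38, at chr16:25934402-25934502, chr16:26041439-26041539, chr16:25835477-25835577, chr16:25777657-25777757 and chr16:25780034-25780234 in turn.
133 kb downstream of the ΔNp63 start: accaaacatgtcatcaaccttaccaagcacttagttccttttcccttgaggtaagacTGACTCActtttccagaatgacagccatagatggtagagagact
240 kb downstream, at the AU015336 start: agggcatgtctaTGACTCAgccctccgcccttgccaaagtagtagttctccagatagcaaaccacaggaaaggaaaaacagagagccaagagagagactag
33.6 kb downstream, intronic: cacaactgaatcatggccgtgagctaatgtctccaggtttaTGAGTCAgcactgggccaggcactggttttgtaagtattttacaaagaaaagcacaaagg
24.2 kb upstream, intronic: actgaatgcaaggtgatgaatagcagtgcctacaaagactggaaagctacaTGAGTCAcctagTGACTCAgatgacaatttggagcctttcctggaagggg
21.8 kb upstream, intronic: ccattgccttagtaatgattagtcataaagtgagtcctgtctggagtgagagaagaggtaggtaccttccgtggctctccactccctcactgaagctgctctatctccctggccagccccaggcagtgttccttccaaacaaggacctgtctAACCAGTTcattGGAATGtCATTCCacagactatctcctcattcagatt

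The 4 peak lists held 49856 to 69927 intervals and differed in depth. The pileup, meaning how many sequenced fragments covered a summit, was recovered from the deposited values. Relative depth was the median, over shared regions, of a library's pileup divided by that of WT 1. This placed WT 2 at 0.694, Mapk8-KO 1 at 1.12 and Mapk8-KO 2 at 0.646 of the depth of WT 1. Replicate 2 was thus the shallower library of both genotypes. Depth-scaled pileups below were divided by this relative depth. The log2 differences, unless stated otherwise, were centred on library medians, so the scalings differ slightly. The lowest pileup called as a peak was 8 to 10 fragments, and total reads are unknown. As a check of the cell type, promoter peaks were called in all 4 libraries for 4 of 6 keratinocyte markers. At Krt14, however, no single region was called in all 4. Promoter peaks of Krt5 and Krt1 were missing in Mapk8-KO 2. None of 4 immune markers had a promoter peak. Peaks were present at 1 of 2 endothelial, 2 of 2 fibroblast and 3 of 4 melanocyte marker promoters in all 4 libraries, with none at Cdh5 and Tyr. Of the Merkel cell markers, Atoh1 had a promoter peak of 16, 26 and 14 fragments in WT 1, Mapk8-KO 1 and Mapk8-KO 2, and Krt20 had none. Summed pileups of the keratinocyte markers were 256, 149, 447 and 213. Those of the fibroblast markers were 63, 48, 82 and 45, and those of the melanocyte markers 222, 159, 280 and 185. Values given 4 at a time are in the order WT 1, WT 2, Mapk8-KO 1 and Mapk8-KO 2, here and for every region described. The part of such cells in the values below was not tested. In these bulk libraries, fewer cells with an open region and less opening per cell cannot be told apart.

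The Trp63 window was rich in open regions. The gene body overlapped 17 regions, more than 98.5% of 21938 coding genes (median 1), and the whole window held 62 (median 32). Such windows differ in length with the gene. Per 100 kb the Trp63 window held 7.67 regions, against a median of 4.92, and 85.2% of genes held fewer. Per 100 kb of gene body, Trp63 held 8.16 regions, against a median of 3.37 among 2037 genes of 0.5 to 2 times its length, 84.3% of which held fewer. By position, 14 regions lay in the upstream flank, 9 in the introns between both starts, 1 at the ΔNp63 promoter, 7 in the gene after it and 31 in the downstream flank. Of the 17 in the gene body, 15 were wholly intronic. The exceptions were the ΔNp63 promoter region, which reached into the noncoding part of the first ΔNp63 exon, and a region called in WT 1 alone, with 13 fragments, that overlapped a coding exon 18.4 kb after the ΔNp63 start.

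**Figure D1:**
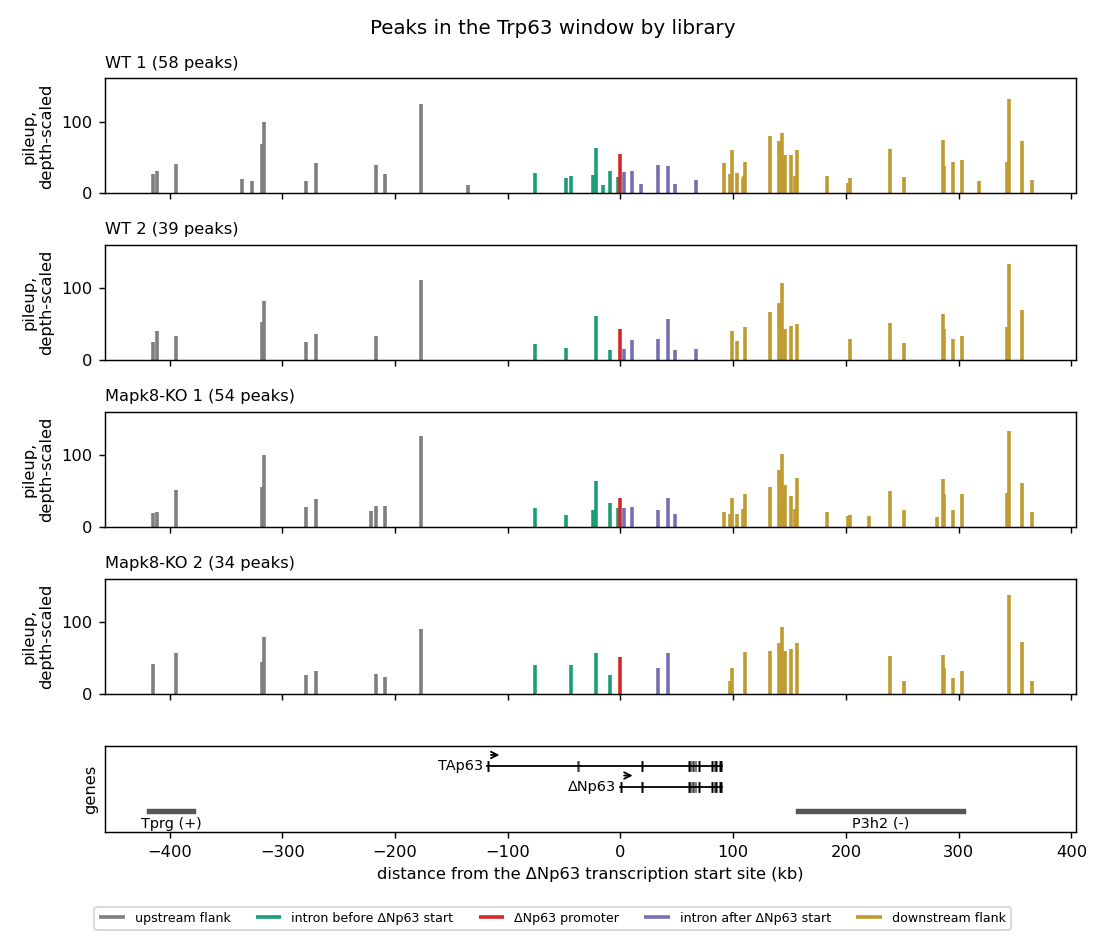
Peaks in the Trp63 window in each of the 4 libraries. The vertical axis is the summit pileup in fragments, divided by the depth of the library relative to WT 1, the horizontal axis is the distance from the ΔNp63 start in kb, and colours mark the part of the locus. No bar stands at the TAp63 start, 118 kb to the left of zero, and the bar 345 kb downstream is the tallest in each library.

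WT 1, WT 2, Mapk8-KO 1 and Mapk8-KO 2 had 58, 39, 54 and 34 peaks in the window. These covered 25066, 16587, 22286 and 14231 bp, with median widths of 391.5, 403, 373.5 and 384.5 bp, close to those of the whole lists (367 to 392 bp). The deeper library of each genotype held more peaks than the shallower, and the genotypes overlapped. Peak numbers were 48.5 ± 13.4 in WT and 44 ± 14.1 in Mapk8-KO (SD, n = 2), a difference of −4.5 (two-sided exact permutation test, p = 0.667). With 2 libraries in each group the smallest p that test can give is 0.333. The sign of the difference turned without WT 1 (5) and without Mapk8-KO 2 (5.5). When each list was shortened to 49856 intervals, the numbers were 41, 35, 41 and 34.

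Of the 62 regions, 30 (48.4%) were called in all 4 libraries, as were 48.6% of all regions. Another 11 were called in 3 libraries, 11 in 2 and 10 in 1. Both deeper libraries, WT 1 and Mapk8-KO 1, alone shared 9 regions (14.5%, against 7.91% of all regions). No region was called in a shallower library alone, where 2.19% of all regions were called in WT 2 alone and 1.97% in Mapk8-KO 2 alone. A single region was specific to WT (2.17% of all regions were), and none was specific to Mapk8-KO (1.65% of all regions). The WT-specific region (chr16:25869129-25869437) lay in an intron 67.4 kb after the ΔNp63 start and had 19 and 11 fragments, where the lowest pileups called in those lists were 9 and 8.

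No peak was called at the TAp63 promoter in any library. The nearest regions to the TAp63 start were 16.7 kb upstream, called in WT 1 alone with 12 fragments (chr16:25666830-25667073), and 41.8 kb downstream, called in all 4 libraries (chr16:25725597-25725962). Thus 58.5 kb around this start held no region in any list. Peak lists hold no signal that fell short of a call. The lowest pileups called in this window were 12, 10, 15 and 12 fragments, so signal of about that size at the TAp63 start could go unlisted.

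The ΔNp63 promoter was open in all 4 libraries at a middling level. Its region (chr16:25801649-25801988, 340 bp) had its summit 95 bp upstream of the start. It held 55, 30, 45 and 33 fragments, a fold enrichment over local background of 9.45, 8.45, 7.68 and 9.70. Its peak was narrow, at 309, 203, 340 and 221 bp, where the median promoter region spanned 683, 569, 677 and 565 bp.

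Depth-scaled, the same pileups were 55, 43.2, 40.3 and 51.1 fragments. The highest value was in WT 1, the next in Mapk8-KO 2 and the lowest in Mapk8-KO 1, so the genotypes overlapped, at 49.1 ± 8.34 in WT and 45.7 ± 7.62 in Mapk8-KO (SD, n = 2). The log2 difference, Mapk8-KO minus WT, was −0.06 (SE 0.24, 95% interval −0.54 to 0.42, limma adjusted p = 0.96). Here and below, limma's SE and interval borrow most of their variance from the trend over all shared regions. They do not measure the spread of a single region between these libraries. The sign of the difference turned without WT 1 (0.09) and without Mapk8-KO 1 (0.12), and it was −0.22 without either of the others. Centred on promoter regions it was −0.18, and centred on the median ratio between libraries it was −0.10. Among 14530 promoter regions called in all 4 libraries, 50.03%, 34.7%, 30.5% and 40.5% had a lower pileup than ΔNp63, and by fold enrichment 51.7%, 44.0%, 30.7% and 57.9% did. Within the locus it ranked 14 of 30 by mean percentile of fold enrichment.

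**Figure D2:**
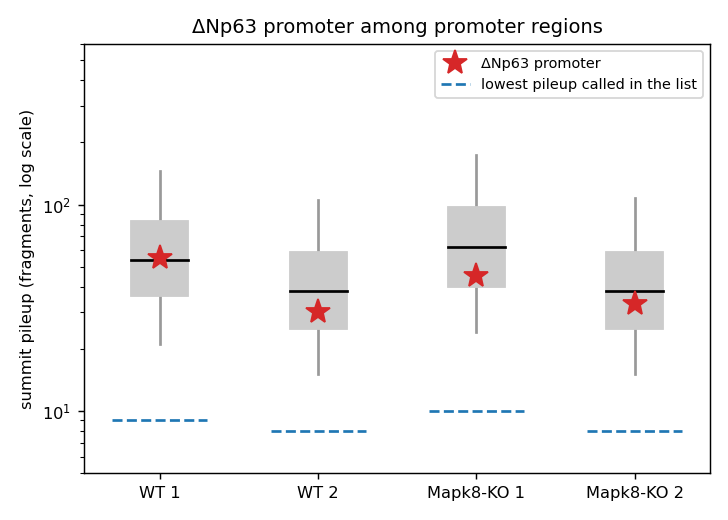
Summit pileup in fragments (log scale) of the ΔNp63 promoter region (stars) in each library. Boxes span the 25th to 75th percentile of the 14530 promoter regions called in all 4 libraries, with the median as a line and whiskers from the 5th to the 95th percentile, and the dashed lines mark the lowest pileup called in each list. The star, at 55 fragments, lies by the median of 54 in WT 1 and below it in the other libraries, at 30, 45 and 33 fragments.

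The coding promoters whose pattern over the 4 libraries lay closest to that of the ΔNp63 promoter, by distance in centred log2 pileup among 10882 coding genes, were those of Pycard (0.0957), Gpat4 (0.103), Rnf19b (0.124), Pemt (0.148) and Fam3b (0.151). Pycard encodes the inflammasome adaptor ASC, Gpat4 and Pemt encode enzymes of glycerolipid synthesis, Rnf19b a ubiquitin ligase and Fam3b a secreted cytokine-like protein. At Pycard the pileups were 58, 31, 44 and 33 fragments.

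A region 2024 bp upstream of the ΔNp63 start fell just outside the 2 kb taken as promoter. It was called in both deeper libraries alone, with 23 fragments in WT 1 and 29 in Mapk8-KO 1.

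Of the 9 regions in the introns between both starts, which belong to TAp63 transcripts, 3 were called in all 4 libraries. The strongest lay 21.8 kb upstream of the ΔNp63 start (chr16:25779995-25780435). It held 63, 43, 72 and 37 fragments and ranked at the 76.2, 76.7, 78.1 and 70.9 percentile of fold enrichment among regions called in all 4 libraries. The log2 difference, centred on library medians, was 0.01 (SE 0.22, 95% interval −0.42 to 0.43). After depth scaling the pileups of this region were 63, 61.9, 64.5 and 57.3 fragments, with the genotypes overlapping. Its summit window held the GRHL letters AACCAGTT and a pair of TEAD sites facing each other.

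The region 41.8 kb past the TAp63 start, 734 bp from the start of the pseudogene Gm27005, held 28, 16, 30 and 26 fragments. Mapk8-KO 2 stood highest after depth scaling (40.2) and WT 2 lowest (23.0), with WT 1 at 28 and Mapk8-KO 1 at 26.9 between them (log2 difference 0.42, SE 0.29, limma adjusted p = 0.62). That difference was 0.13 without Mapk8-KO 2 and 0.72 without Mapk8-KO 1. The region 9.3 kb upstream of the ΔNp63 start (chr16:25792486-25793041) held 31, 10, 37 and 17 fragments, so WT 2 was low and the other libraries overlapped (log2 difference 0.53, SE 0.31, limma adjusted p = 0.53). Without WT 2 that difference was −0.01, and without WT 1 it was 1.05.

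The remaining 6 regions between both starts were called in 1 to 3 libraries, with 12 to 29 fragments where called. The one 24.2 kb upstream (chr16:25777596-25777783) held 26 fragments in WT 1 and 27 in Mapk8-KO 1. It carried 3 AP-1 sites within 100 bp of its summit, of which both nearest the summit are in the stretch printed here, and no other region of the locus carried more than 1.

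After the ΔNp63 start the gene held 7 regions, of which 7, 6, 5 and 2 were called. Over the whole gene body the numbers of peaks were 16, 11, 13 and 7, with 13.5 ± 3.54 in WT and 10 ± 4.24 in Mapk8-KO (SD, n = 2, difference −3.5, two-sided exact permutation test, p = 0.667). In lists of equal length they were 10, 7, 9 and 7. Of the 7 regions after the ΔNp63 start, 2 were called in all 4 libraries. The first, 33.6 kb downstream of the start (chr16:25835302-25836084, 783 bp), carried an AP-1 site and held 39, 21, 26 and 23 fragments (log2 difference −0.21, SE 0.29, limma adjusted p = 0.84). The second, 41.9 kb downstream (chr16:25842980-25843991, 1012 bp), held 38, 40, 46 and 37 (log2 difference 0.10, SE 0.24, limma adjusted p = 0.92). At both, the depth-scaled values of the genotypes overlapped.

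Mapk8-KO 2 lacked 8 of the 38 locus regions that the other libraries all had (21.1%, against 16.9% of such regions in the genome). Among them were 3 of the 7 regions after the ΔNp63 start. One lay 10.3 kb downstream of it (chr16:25811426-25812367) and held 31, 20 and 32 fragments in the other libraries, which scales to 19.1 in Mapk8-KO 2. Another, far downstream (chr16:26144647-26144893), held 44, 32 and 53, which scales to 29.6. Of 22279 regions scaling to at least that pileup, 2.85% were uncalled in Mapk8-KO 2, and of 35927 scaling to at least 19.1, 8.61% were. These shares take no account of background. In WT 1, WT 2 and Mapk8-KO 1 the far region had a background of 8.73, 6.08 and 9.15. The medians over all shared regions were 4.36, 2.88 and 4.76. Its fold enrichment was thus only 4.62, 4.66 and 5.32. Both regions were picked after their values were seen.

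The upstream flank held 14 regions, 8 of them called in all 4 libraries, and the strongest lay between genes, 177 kb before the ΔNp63 start (chr16:25624002-25624850). It held 125, 78, 142 and 58 fragments, at the 91.0, 80.0, 91.3 and 83.0 percentile of fold enrichment, and the genotypes overlapped (log2 difference −0.10, SE 0.18, limma adjusted p = 0.88). A region 317 kb upstream (chr16:25485032-25485598) held 100, 57, 112 and 51 fragments (log2 difference 0.02, SE 0.19). A region 270 kb upstream (chr16:25531891-25532273) carried AP-1, RUNX and TEAD letters together and held 42, 25, 43 and 21 (log2 difference −0.09, SE 0.27). None of these 3 separated the genotypes.

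One upstream region ranked higher in Mapk8-KO by at least 10 percentile points, the only one of the 30 to do so (4.07% of all regions called in all 4 libraries did). It lay within the Tprg gene, 394 kb upstream of the ΔNp63 start (chr16:25407244-25408247), and held 41, 23, 57 and 37 fragments. Its percentiles were 62.7 and 43.2 in WT and 80.1 and 86.6 in Mapk8-KO, so both Mapk8-KO libraries stood above both WT libraries by 17.4 points. The log2 difference was 0.60 (SE 0.25, limma adjusted p = 0.31). Tprg, the neighbouring gene upstream, takes its name from being regulated by p63.

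The downstream flank held 31 regions, 16 of them called in all 4 libraries. It had the region with the highest mean percentile of fold enrichment in the locus, 133 kb downstream of the ΔNp63 start (chr16:25934179-25934695), at the 99.2, 97.6, 94.7 and 94.2 percentile in turn. This region carried an AP-1 site 10 bp from its summit and held 80, 47, 62 and 39 fragments over a background of 1.79 to 3.32. Depth-scaled values were 80 and 67.7 in WT and 55.5 and 60.4 in Mapk8-KO, so both WT libraries stood above both Mapk8-KO libraries (log2 difference −0.30, SE 0.21, limma adjusted p = 0.62).

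The region with the highest pileup, 345 kb downstream (chr16:26146683-26147492), held 131, 93, 150 and 89 fragments. These scaled to 131, 134, 134 and 138, so both Mapk8-KO libraries stood above both WT libraries by little. The log2 difference, centred on library medians, was 0.09 (SE 0.17, 95% interval −0.25 to 0.43). A region at the start of AU015336, a noncoding gene inside the collagen prolyl hydroxylase gene P3h2, carried an AP-1 site (chr16:26041178-26041887) and held 62, 36, 56 and 34 (log2 difference −0.09, SE 0.23). At the P3h2 promoter (chr16:26105032-26106085) the pileups were 46, 23, 52 and 21 (log2 difference 0.04, SE 0.26), with the genotypes overlapping.

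One downstream region ranked higher in WT by at least 10 points, again the only one of the 30 (4.65% of all regions called in all 4 libraries). It lay within the P3h2 gene, 295 kb from the ΔNp63 start (chr16:26096796-26097140), and held 44, 21, 27 and 14 fragments. The percentiles were 56.0 and 38.5 in WT and 24.6 and 16.7 in Mapk8-KO, a gap of 13.8 points, and the log2 difference was −0.62 (SE 0.29, limma adjusted p = 0.40). Without WT 1 it was −0.38.

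Next to Gm4524, an antisense noncoding gene between Trp63 and P3h2, 7 regions lay close together (chr16:25942264-25958640). They were picked after their values were seen. The 5 called in all 4 libraries ranked between the 41.4 and 90.5 percentile by pileup (median 69.5) but between the 1.23 and 42.0 percentile by fold enrichment (median 25.1). Their local background, the fragments expected at the summit, had medians between 6.36 and 11.6 in the 4 libraries, against 2.68 to 4.76 over all regions called in all 4 libraries. Fold enrichment divides by that background, so the order of regions within the locus depended on which value was read. Of the other genes starting in the window, no peak was called within 2 kb of the pseudogene Gm18896 or the small nuclear RNA gene Gm24928.

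**Figure D3:**
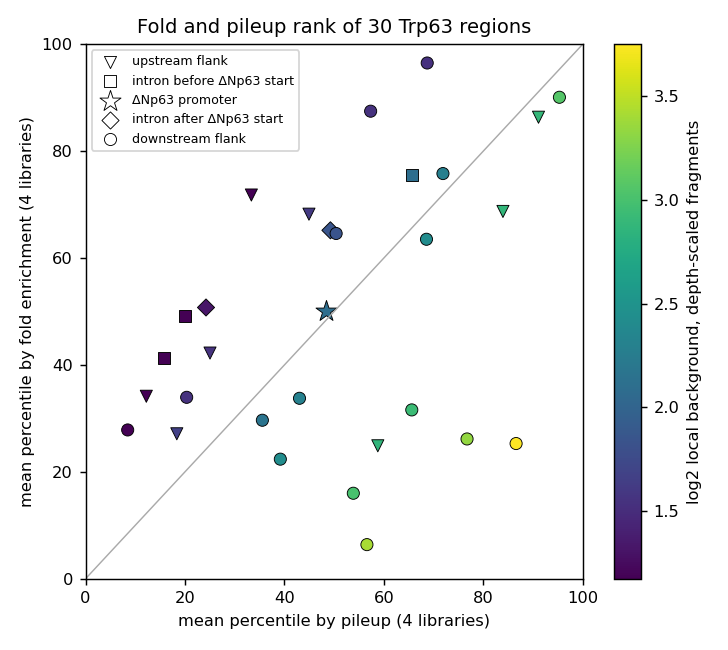
Mean percentile over the 4 libraries by pileup (horizontal) and by fold enrichment (vertical) of the 30 locus regions called in all 4 libraries, each among all 40159 such regions. Marker shapes give the part of the locus and colours the local background in log2 depth-scaled fragments. The ΔNp63 promoter (star) sits near the diagonal, regions with a high background lie below it, and the region 133 kb downstream is the highest point.

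Over the 30 regions, the log2 difference between genotypes had a median of 0.02, with 17 above and 13 below 0 and a range of −0.62 to 0.60. With libraries centred on promoter regions instead, that median was −0.10 and the median of all regions −0.07. In the main scaling, the median over all 40159 regions was 0.05 and the middle 90% ran from −0.51 to 0.50. No locus region passed an adjusted p of 0.05 in limma in either direction, where 0.608% of all regions did (0.498% lower and 0.11% higher in Mapk8-KO). At an unadjusted p under 0.05, 2 of the 30 passed (11.3% of all regions), and these were the regions in Tprg and P3h2 described here. Both WT libraries stood above both Mapk8-KO libraries at 3 regions (16.9% of all regions), and the reverse held at 6 (24.6%). By part of the locus, the median was −0.03 in the upstream flank (8 regions), 0.42 between both starts (3), −0.05 after the ΔNp63 start (2) and 0.03 in the downstream flank (16).

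Mean percentile of fold enrichment over the 30 regions was 50.01, 45.98, 49.07 and 53.04. It was 48.0 ± 2.85 in WT and 51.1 ± 2.81 in Mapk8-KO (SD, n = 2), a difference of 3.06 points (two-sided exact permutation test, p = 0.667). Without WT 1 or Mapk8-KO 1 the difference was 5.03 or 5.04 points, and without WT 2 or Mapk8-KO 2 it was 0.494 or 0.916. The 30 regions took 0.0702%, 0.0630%, 0.0662% and 0.0644% of the summed pileup of all shared regions, and the genotypes overlapped.

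**Figure D4:**
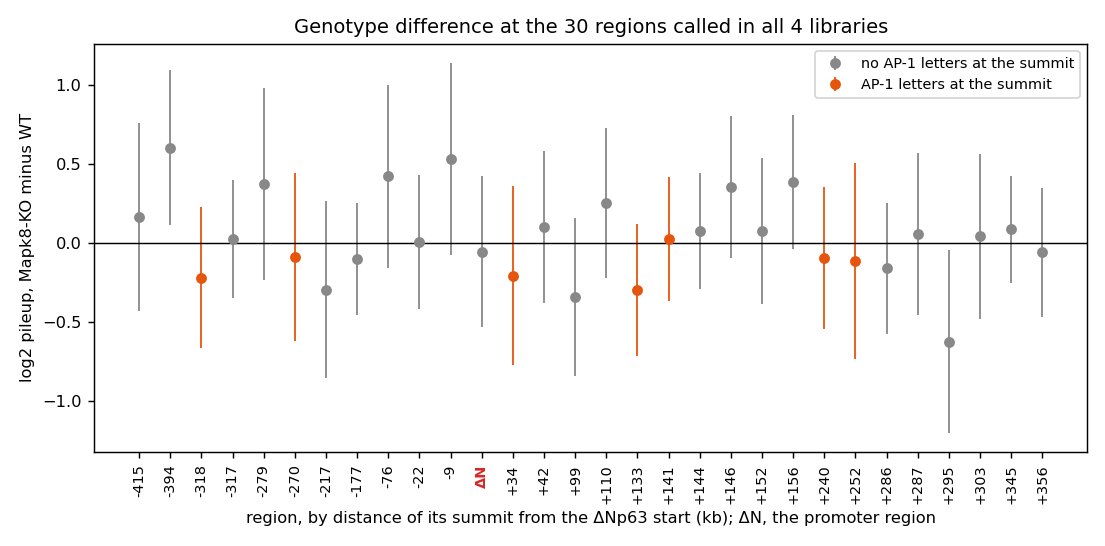
Log2 difference in pileup, Mapk8-KO minus WT, for the 30 regions called in all 4 libraries, in genome order and labelled by the distance of the summit from the ΔNp63 start in kb. Points are limma estimates with 95% intervals, and orange points carry an AP-1 site within 100 bp of the summit. Points range from −0.62 to 0.60, and the 7 orange points lie between −0.30 and 0.03.

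AP-1 letters lay within 100 bp of the summit at 17 of the 62 regions (27.4%, Wilson 95% interval 17.9 to 39.6, counting error only), against 23.7% of all regions. Outside promoters the shares were 26.8% and 28.0%. TEAD letters (GGAATG) were found at 13 (21.0%, against 13.2%), RUNX letters (TGTGGT) at 12 (19.4%, against 13.2%) and GRHL letters (AACNNGTT) at 3 (4.84%, against 5.16%). Each was searched on both strands, and sites of different motifs could overlap. The p53 family response element, the kind of sequence p63 itself binds, was searched with up to 3 mismatches in its 20 letters outside the fixed core. It matched none of the 62 summit windows (3.74% of all regions) and 1 whole region (1.61%, against 6.22%). A match here is a match of letters and not a measured site.

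The 7 AP-1 regions called in all 4 libraries had a median log2 difference of −0.12, with 6 of 7 below 0, and the 23 without AP-1 letters had a median of 0.07, with 7 below 0. Over the genome the medians were −0.08 with and 0.09 without these letters. The difference within the locus was not tested.

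Beyond the gene itself, a list of 43 genes around p63 was read by nearest transcription start. It held the paralogues Trp53 and Trp73, 7 regulators of p63 such as the ubiquitin ligase Itch, and 34 targets or partners. Together they had 247 regions, 133 of them called in all 4 libraries. None of the 133 passed limma in either direction (0.608% of all regions did). At an unadjusted p under 0.05, 20 of the 133 passed, where 11.3% of all regions did. The median log2 difference of the 133 was 0.13, against 0.05 over all regions. Trp53 had a pair of regions within 2 kb of its start. The one 745 bp away (chr11:69581150-69581623) held 29, 29, 31 and 20 fragments, and the one at the start itself (chr11:69580060-69580460) held 17, 15 and 19 in WT 1, Mapk8-KO 1 and Mapk8-KO 2 and was not called in WT 2. No Trp73 promoter region was called in all 4 libraries.

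Of the 116 regions of targets and partners called in all 4 libraries, 6 ranked higher in WT by at least 10 points (5.17%, against 4.65% of all such regions) and 4 in Mapk8-KO (3.45%, against 4.07%). Those higher in WT were nearest to Egfr, the EGF receptor, Fras1, a basement membrane protein, Igfbp3, which binds insulin-like growth factors, Jag1, a Notch ligand, Ripk4, a kinase of epidermal differentiation, and Tfap2c, an AP-2 transcription factor. The Tfap2c region carried AP-1 letters and ranked at the 88.4 and 79.5 percentile in WT and at the 42.2 and 50.5 percentile in Mapk8-KO, with pileups of 44, 29, 29 and 20 fragments (log2 difference −0.55, SE 0.28, limma adjusted p = 0.44). The Egfr region, also with AP-1 letters, held 102, 52, 70 and 32 fragments (log2 difference −0.60, SE 0.21, limma adjusted p = 0.17). Those higher in Mapk8-KO included regions nearest to Bmp7, a BMP ligand, and again to Jag1 and Ripk4. The Bmp7 region held 42, 25, 61 and 29 fragments (log2 difference 0.40, SE 0.25, limma adjusted p = 0.57).

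Regions specific to WT were nearest to Fras1, Jag1 and the transcription factor Runx1 (3 of 247 regions, 1.21%, against 2.17% of all regions), and regions specific to Mapk8-KO to the homeobox gene Dlx3 and to Sfn, which encodes 14-3-3 sigma (2 regions, 0.810%, against 1.65%). Krt5 and Krt14, keratins of the basal layer, had 2 and 4 regions, none of them called in all 4 libraries. The highest pileup within 2 kb of a Krt14 start was 38 and 17 fragments among WT libraries but 199 and 109 among Mapk8-KO libraries. These maxima were taken over 2 regions, neither of which was called in all 4 libraries, so they do not compare a single site. The Mapk8-KO mice carry the keratin 14 Cre transgene, and its part in these values was not tested.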

How the data were processed

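ATAC-seq peak lists of 4 libraries were analysed, 2 WT and 2 Mapk8-KO, grouped by labelled genotype. As the study's methods state, paired reads were aligned to mm10 with Bowtie2 by the authors, who removed multiply or poorly aligned reads. MACS2 was then run by the authors on whole fragments. Each library has a deposited list of its own. No shift for Tn5 insertion is stated, and other tools listed in the submitters' processing notes have no stated role. The deposited lists give each peak's position, a fold enrichment of the summit over local background, −log10 p and −log10 q values, a score made from q and the summit offset, all computed by the authors. The deposited score and −log10 q were used only to filter or check. Read counts were not used here, so the study's count test was not run.

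Pileup and background were solved together from the fold and −log10 p values in the deposited lists, and at least 99.996% of peaks gave a whole number to within 0.05. Log2 pileups were centred on each library's median over the 40159 regions called in all 4 libraries and tested with limma 3.58.1 (R 4.3.3, variance trend, Benjamini-Hochberg over all of them). Depth-scaled pileups were instead divided by the median ratio to WT 1 over the same regions. The recovery and the fit were tested on simulated data. Percentiles rank the highest fold in a region among those regions. Groups were compared by exact permutation over the 6 label assignments. Genes came from the GENCODE vM21 basic annotation, and promoters lay within 2 kb of a start. Scripts used Python 3.11.15, pandas 2.3.3, scipy 1.17.1 and pysam 0.24.0.

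Values were given in full for promoter regions, the 3 regions with the highest mean percentile in each part of the locus, every region specific to a genotype or past the rank gap, and the 5 nearest promoter patterns. Other regions given were chosen after their values were seen. The locus, the gene lists and the tests were chosen with earlier results of these data known. Alternatives covered list length, q, window, overlap, ranking value, rank gap, scaling, variance model, replicate block, motif window and each library left out. Results for some genes of the list are not reported here.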

Additional observations from a re-analysis of the deposited data

How the results depend on the processing

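Of 140 alternative values over 16 results, 109 kept their direction and their side of the threshold (for counts, stayed within 1.5 times), though some differed in size. Another 24 moved and 7 changed sign. In lists of equal length the difference in peak number was −0.5 and that in covered bases −1267. Leaving out 1 library at a time, the genotype difference in peak number ran from −14.5 to 5.5, with 5 without WT 1 and 5.5 without Mapk8-KO 2, and that in covered bases from −6807.5 to 1671.5, with 1459.5 without Mapk8-KO 2. Regions specific to WT numbered 1 to 9 (7 without WT 2, 9 without Mapk8-KO 1) and those specific to Mapk8-KO 0 to 4 (3 without WT 1, 4 without Mapk8-KO 2). Without WT 1, WT 2, Mapk8-KO 1 and Mapk8-KO 2 in turn, 2, 2, 3 and 5 regions ranked higher in WT and 3, 6, 8 and 4 in Mapk8-KO. The ΔNp63 promoter ran from −0.22 to 0.12, with 0.09 without WT 1, and the region 9.3 kb upstream from −0.0078, without WT 2, to 1.05. Regions past limma stayed at 0 at the locus and in the p63 gene list in each fit on all 4 libraries. Without a variance trend and on log2 fold, no region of the genome passed, so those fits could give no other count. The count of the gene list moved only with a library left out. Such fits keep 1 library in a genotype, so their spread between libraries comes from the other genotype alone. In lists of equal length, 3 regions were specific to WT and 1 to Mapk8-KO, and with peaks required to cover 50% of a region 2 were specific to WT. With flanks of 100 kb, no region (0) ranked higher in either genotype, nor (0) with a gap of 20 points, and a gap of 5 points gave 2 in WT and 3 in Mapk8-KO. Ranking by −log10 p gave 3 in Mapk8-KO and a difference in mean percentile of 1.73. With a library left out, fewer libraries decide whether a region is specific to a genotype or past the rank gap. Those counts can rise by that rule alone. Other causes of these moves were not tested.

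The number of regions of the whole genome past limma depended on the setting, at 244 in the reported fit (44 higher and 200 lower in Mapk8-KO), 94 when centred on the median ratio (8 and 86), 29 with quantile normalization (3 and 26), 16 when centred on promoter regions (0 and 16), 0 without a variance trend (3985 at an unadjusted p under 0.05) and 0 on log2 fold (2731). Centring on promoters moved the median of all regions from 0.05 to −0.07 and that of the locus from 0.02 to −0.10. The median-ratio centring was chosen after seeing the data. Leaving out WT 1, WT 2, Mapk8-KO 1 or Mapk8-KO 2 gave 7, 8, 442 or 1 higher and 44, 2, 1148 or 29 lower. The replicate numbers were taken as shared labels only (r = 0.0392 between deviations of same-numbered libraries over all shared regions and 0.167 over those of the locus, 1 value for both pairs since deviations within a group of 2 mirror each other). With the replicate block, 102 regions were higher and 284 lower, 0 at the locus, and the difference in peak number was −4.5. No difference between genotypes could be computed at the TAp63 promoter, nor between it and the ΔNp63 promoter, since no peak was called there. Depth limits what is seen, as no peak under 8 to 10 fragments was called anywhere.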
